A study of Homo sapiens with 4 samples.

Results

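Genes of the semaphorin, ephrin, netrin and slit guidance systems and their receptors were examined in CD31+ cells that were grown from H1, a widely used line of human embryonic stem cells, and collected on day 8 of hematopoietic differentiation. The members were taken by symbol, as SEMA3 to SEMA7, EFN, NTN and SLIT genes for the ligands and PLXN, EPH, UNC5 and ROBO genes for the receptors. This gave 66 members, 35 ligands and 31 receptors, among 58229 genes of the table. One group overexpressed HAND1, a transcription factor of early mesoderm and heart (HAND1_OE, 2 libraries), and the other did not (Control, 2 libraries). Both groups went through the same steps, first activin A and BMP4 and then VEGF and bFGF, and CD31+ cells were collected from each. Per the study's scheme HAND1 was induced with doxycycline in the later stage of the culture. Whether Control cells carried the same construct, and whether the libraries came from separate cultures, is not stated in the sources used here, so p-values measure the spread between these libraries, which may be technical. The study asked whether HAND1 sustains mesenchymal genes and holds back blood formation.

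Guidance ligands are best known for steering growing axons, and the same pairs steer vessel sprouts and set the border between artery and vein. Semaphorins signal through plexins, with neuropilins as co-receptors for the secreted class 3 proteins. Ephrins are bound to the membrane and signal through EPH receptor tyrosine kinases of the neighbouring cell, with EFNB2 on arterial and EPHB4 on venous endothelium. Netrins bind UNC5 receptors and DCC, and slits bind ROBO receptors, of which ROBO4 is the form of endothelial cells.

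Values are given as FPKM, which are fragments scaled to transcript length and to the mapped fragments of a library, so that levels can be compared between genes. FPKM summed to between 536284 and 606609 per library and the counts behind each value are unknown. Depth relative to Control replicate 1 was estimated from the most common ratio of values among single-exon genes above 0 in both libraries. It was between 0.984 and 1.19 in the other libraries. From 236 to 303 genes lay near that ratio, of 3020 to 3166 used. HAND1 stood at 12.1 and 14.3 FPKM in Control, against 520 and 517 FPKM in HAND1_OE, which matched the labels. PECAM1, the gene of CD31, lay between 92.0 and 160 FPKM in all libraries, and of 10 endothelial markers 1 was called lower (CLDN5) and 0 higher, where 1 had an unadjusted limma p under 0.05 upward. Blood markers moved with the groups. Called lower were 11 of 12 tested erythroid, 6 of 7 megakaryocyte, 5 of 6 myeloid and 6 of 7 pan-hematopoietic markers. In these lists 0 genes were called higher, and 0 had an unadjusted limma p under 0.05 upward. Of all genes tested, 2.11% were called lower and 2.04% higher, and 6.82% had an unadjusted p under 0.05 upward. The summed level of the erythroid list was 889 and 1283 FPKM in Control and 70.3 and 57.0 FPKM in HAND1_OE. PTPRC, the gene of CD45, did not exceed 0.0227 FPKM in any library. Fibroblast and mesenchyme markers summed to 819 and 745 FPKM in Control and to 1147 and 1166 FPKM in HAND1_OE, with 4 of 9 tested called higher and 0 lower (1 lower with an unadjusted p under 0.05). Of 10 neural markers only TUBB3 was tested, and NEUROD1 and ELAVL3 were listed at 0 in all libraries. In bulk RNA, fewer cells of a type and less RNA per cell cannot be told apart.

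The 250 bases before the transcription start are shown for the pair on which the artery and vein comparison rests, and for a plexin and a semaphorin that passed the test, because HAND1 belongs to the basic helix-loop-helix factors, which bind the E-box CANNTG. Sequences are from RefSeq on GRCh38.p14 and run 5′ to 3′ on the strand of the gene. Capitals mark each CANNTG, which reads the same on both strands. The stretches are chr3:126982865-126983114 on the plus strand for PLXNA1, and on the minus strand chr9:89495657-89495906 for SEMA4D, chr13:106535663-106535912 for EFNB2 and chr7:100827524-100827773 for EPHB4.
PLXNA1: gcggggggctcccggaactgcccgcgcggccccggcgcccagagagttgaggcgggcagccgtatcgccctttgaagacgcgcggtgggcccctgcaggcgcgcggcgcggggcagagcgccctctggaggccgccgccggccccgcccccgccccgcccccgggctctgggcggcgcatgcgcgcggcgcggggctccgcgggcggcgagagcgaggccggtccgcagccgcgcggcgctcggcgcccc
SEMA4D: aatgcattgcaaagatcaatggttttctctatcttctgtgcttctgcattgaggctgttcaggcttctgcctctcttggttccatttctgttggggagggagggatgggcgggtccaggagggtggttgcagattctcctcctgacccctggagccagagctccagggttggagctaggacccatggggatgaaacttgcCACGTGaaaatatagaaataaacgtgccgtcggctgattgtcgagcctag
EFNB2: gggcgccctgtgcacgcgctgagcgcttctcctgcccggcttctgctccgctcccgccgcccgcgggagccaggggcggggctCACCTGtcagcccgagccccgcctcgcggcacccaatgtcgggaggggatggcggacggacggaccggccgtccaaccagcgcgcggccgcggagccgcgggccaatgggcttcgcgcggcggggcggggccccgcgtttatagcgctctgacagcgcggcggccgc
EPHB4: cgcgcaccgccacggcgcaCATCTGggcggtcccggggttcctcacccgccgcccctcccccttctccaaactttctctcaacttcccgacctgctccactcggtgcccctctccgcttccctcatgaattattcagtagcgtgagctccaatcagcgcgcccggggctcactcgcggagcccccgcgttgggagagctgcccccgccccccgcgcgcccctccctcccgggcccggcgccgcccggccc
SEMA4D, EFNB2 and EPHB4 each held 1 match and PLXNA1 held 0. RefSeq places the starts of PLXNA1 and EFNB2 upstream of the gene starts in the deposited table. It places the start of SEMA4D downstream, so the SEMA4D stretch lies within the gene as listed there. Of 57 members matched to a RefSeq promoter, 49.1% held a CANNTG in this window, against 52.9% of the tested genes with a promoter and 61.8% of all promoters. A match describes letters, and no binding was measured in these samples.

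The first comparison asked which guidance genes changed with HAND1. PLXNA1, a receptor for class 6 and, with neuropilins, class 3 semaphorins, rose about 3.44-fold, while the transmembrane semaphorins SEMA4D and SEMA6B fell. These were the 3 members called at a limma adjusted p under 0.05, of 50 members that reached 1 FPKM in at least 2 libraries. The 6% of members called compares with 4.16% of all 14622 genes tested, where 2.04% were called higher and 2.11% lower, so the members' share is close to the background. The other 16 members were not tested, and the highest single value among them was 1.31 FPKM.

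PLXNA1 (ENSG00000114554.11, GRCh38 chromosome 3, 126988594 to 127037392) stood at 10.3 and 9.98 FPKM in Control, against 33.2 and 36.7 FPKM in HAND1_OE. Both HAND1_OE libraries lay far above both Control libraries, and the libraries within a group were close to each other. The means were 10.2 ± 0.237 and 34.97 ± 2.45 FPKM (SD, n = 2), with a log2 fold change of 1.69 (SE 0.147, adjusted p = 0.0078). Log2 fold changes here are taken on log2(FPKM + 1), a scale that makes the change of a weakly expressed gene look smaller than it is, and SE is their standard error. With each library left out in turn the adjusted p of PLXNA1 was from 0.0066 to 0.0276. Such a fit has 1 library in a group, which is assumed to vary like those of the other group, here and wherever a library is left out. It did not pass when all genes above 0 in any library were tested (adjusted p = 0.153).

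SEMA6B (ENSG00000167680.15, chromosome 19, 4542593 to 4559808), a ligand of A-type plexins, stood at 34.5 and 32.9 FPKM in Control, against 17.2 and 18.3 FPKM in HAND1_OE. Its means were 33.7 ± 1.15 and 17.8 ± 0.817 FPKM (SD, n = 2), with a log2 fold change of -0.89 (SE 0.142, adjusted p = 0.0351). SEMA4D (ENSG00000187764.11, chromosome 9, 89360787 to 89498130), also named CD100, is a ligand of PLXNB1 that lymphocytes and platelets carry. SEMA4D stood at 6.37 and 6.80 FPKM in Control, against 2.70 and 2.86 FPKM in HAND1_OE. The groups lay apart, with means of 6.58 ± 0.308 and 2.78 ± 0.108 FPKM (SD, n = 2) and a log2 fold change of -1.005 (SE 0.170, adjusted p = 0.0397). The blood markers above fell in the same libraries, and their part in the lower SEMA4D was not tested. With any 1 of the 4 libraries left out neither passed (adjusted p from 0.0647 to 0.164 for SEMA6B and from 0.0801 to 0.177 for SEMA4D), although the log2 fold changes stayed between -0.93 and -0.84 and between -1.05 and -0.96. SEMA4D also did not pass after median-ratio scaling (adjusted p = 0.0516), nor SEMA6B once the dependence on transcript length and on GC was removed (adjusted p = 0.0687).

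**Figure D1:**
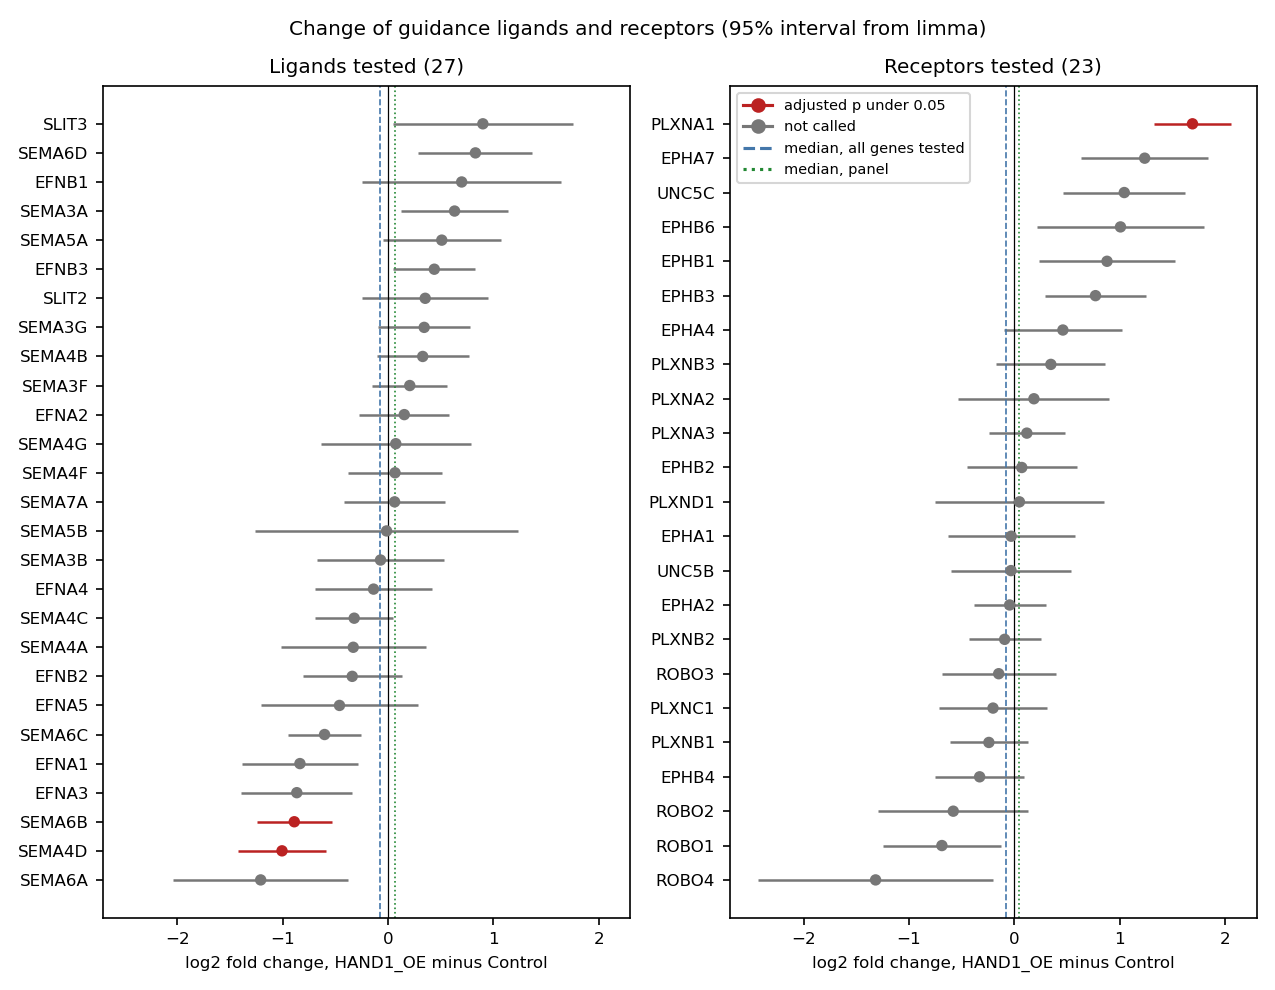
Log2 fold change of each tested member (x axis, HAND1_OE minus Control, on log2(FPKM + 1)) for 27 ligands on the left and 23 receptors on the right, ordered by size, with the 95% interval that limma gives as a line. Red marks an adjusted p under 0.05, the dashed line is the median of all genes tested (-0.08) and the dotted line the median of the panel (0.06 for ligands, 0.05 for receptors). PLXNA1 stands at the top of the receptors, and the intervals of SEMA6B and SEMA4D lie below 0.

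Ligands and receptors were then set side by side. Of 27 tested ligands 14 had a log2 fold change above 0 and 13 below, with 0 called higher and 2 lower. Of 23 tested receptors 12 were above 0 and 11 below, with 1 called higher and 0 lower. Of all 14622 genes tested 5663 were above 0 and 8959 below, with 2.04% called higher and 2.11% lower. At an unadjusted limma p under 0.05, 4 ligands were higher and 6 lower, and 6 receptors were higher and 2 lower. Those shares over all genes were 6.82% higher and 10.6% lower. The medians were 0.06 for ligands and 0.05 for receptors, beside -0.08 for all genes tested. The ligand median was -0.07 without HAND1_OE replicate 2 and the receptor median -0.01 without Control replicate 2, so that the sign of each rests on a single library. The difference between ligands and receptors was not tested.

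Although few members were called, more lay apart between the groups. The groups did not overlap in 32 of 50 members (64%), beside 46.3% of all genes tested. In 17 members (34%) both HAND1_OE libraries were above both Control libraries, beside 16.2% of all genes tested, and in 15 (30%) both were below, beside 30.1%. After median-ratio scaling, 23 of the 50 members were above and 12 of the 50 below. Of the 14622 genes tested, 3444 (23.6%) were then above and 3111 (21.3%) below. At an unadjusted p under 0.05, 10 members (20%) were higher, beside 6.82% of all genes, and 8 (16%) were lower, beside 10.6%. Members were chosen as a family of known genes with earlier results in view, and the shares are a description.

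The summed level of the ligands was 871 and 806 FPKM in Control and 630 and 704 FPKM in HAND1_OE, so every HAND1_OE library lay below both Control libraries. The receptors summed to 1175 and 928 FPKM in Control and to 1169 and 949 FPKM in HAND1_OE, which overlap. PLXND1 alone held 47.0% to 61.2% of the receptor sum of a library. Among the ligands, EFNA1, EFNB2 and SEMA4C together held 64.0% and 59.3% of the sum in Control and 53.8% and 54.0% in HAND1_OE.

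**Figure D2:**
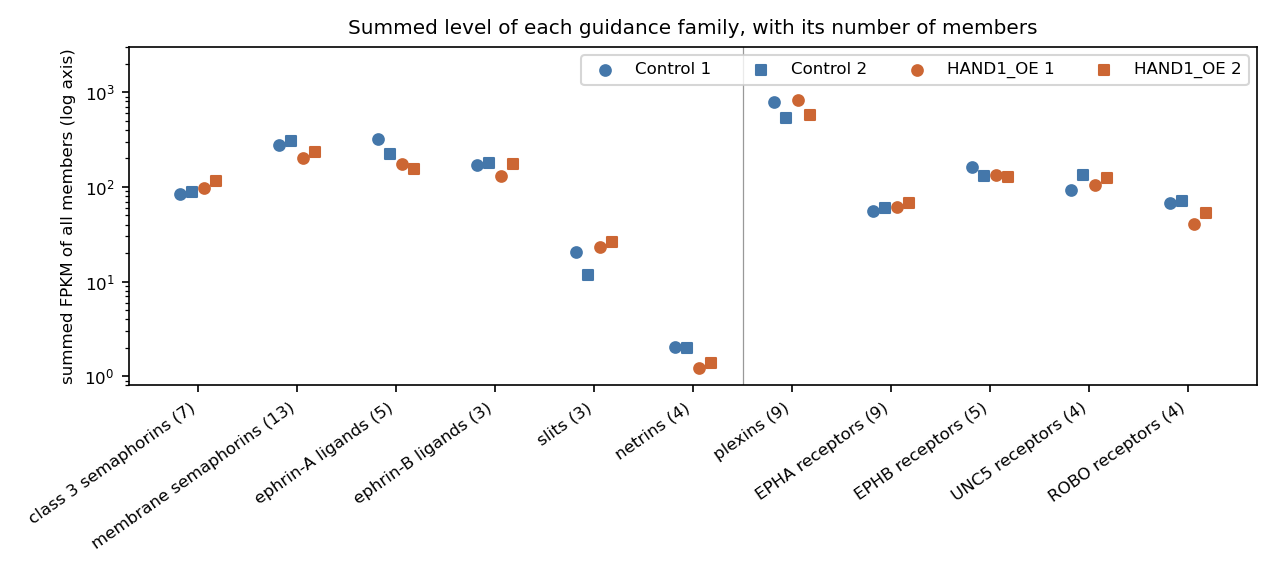
Summed FPKM of all members of a family (y axis, log scale) in each library, with ligand families left of the vertical line, receptor families right of it and the number of members in parentheses. The ephrin-A sum lies between 154 and 173 in HAND1_OE against 224 and 318 in Control, while plexin sums follow the replicate number in both groups.

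Plexins, the semaphorin receptors, were dominated by PLXND1, an endothelial plexin that binds SEMA3E. PLXND1 stood at 704 and 436 FPKM in Control, against 715 and 458 FPKM in HAND1_OE. The libraries numbered 1 were higher than those numbered 2 in each group, by far more than the groups differed (log2 fold change 0.05, standard error 0.322, adjusted p = 0.970). The 95% interval of the PLXND1 change ran from -0.76 to 0.85, so a change in either direction within it was not detectable. The other plexins at 5 FPKM or more were PLXNB2 (31.8 ± 0.123 and 29.8 ± 0.270 FPKM in Control and HAND1_OE, SD, n = 2), PLXNB1 (22.1 ± 1.47 and 18.5 ± 1.02 FPKM), PLXNA3 (18.9 ± 0.681 and 20.5 ± 0.892 FPKM) and PLXNA2 (6.38 ± 2.67 and 7.14 ± 1.12 FPKM). None of these passed (adjusted p from 0.502 to 0.828). PLXNA1 thus went from below PLXNA3 in both Control libraries to above it in both HAND1_OE libraries. PLXNB3 and PLXNC1 lay between 1.09 and 3.52 FPKM, and PLXNA4, not tested, did not exceed 0.664 FPKM.

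**Figure D3:**
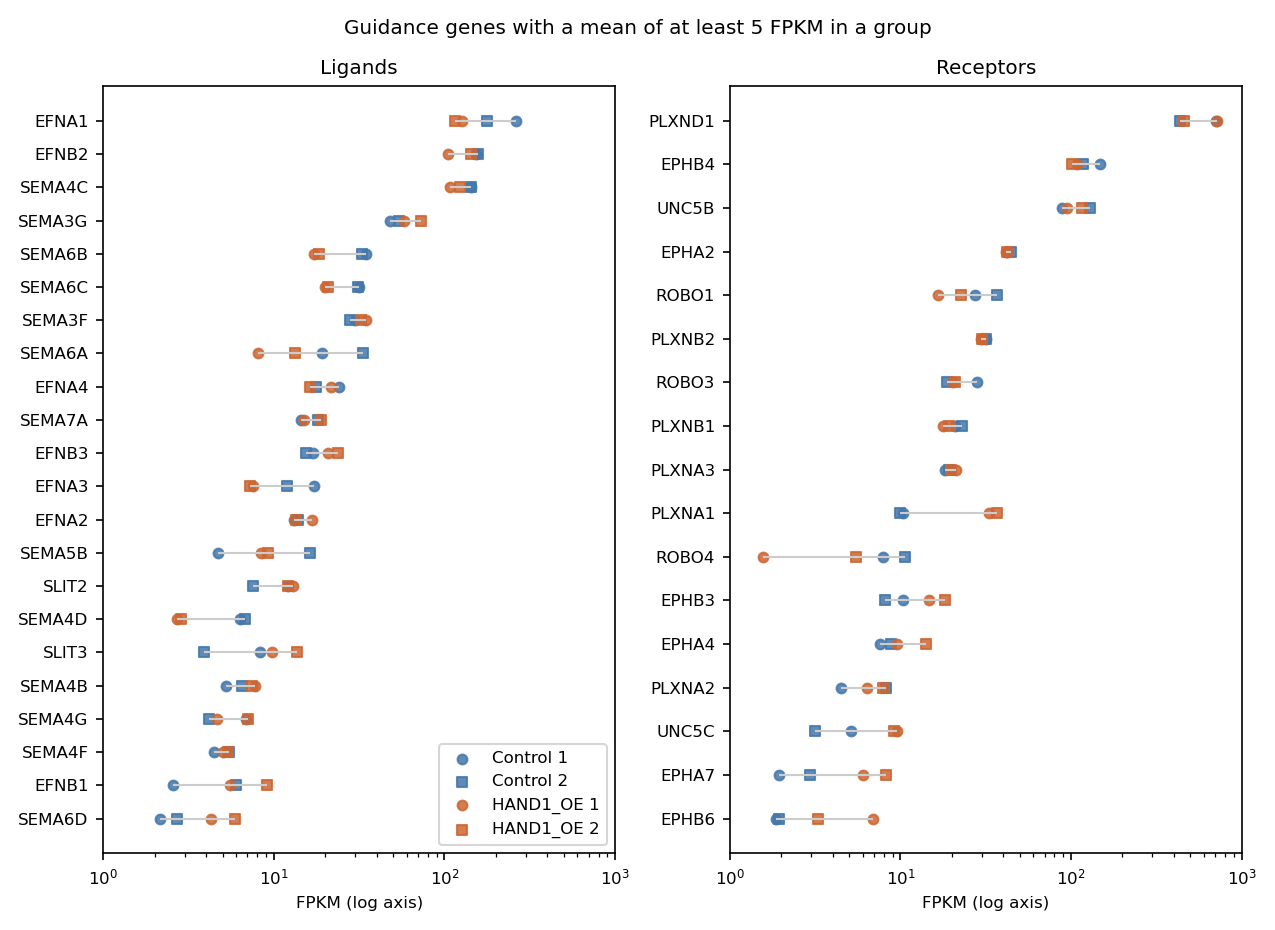
FPKM (x axis, log scale) of the 39 members with a mean of at least 5 FPKM in a group, ligands on the left and receptors on the right, ordered by their mean in Control. Each point is a library, blue for Control and orange for HAND1_OE, with circles for replicate 1 and squares for replicate 2, and the grey line joins the lowest and highest value. PLXNA1 has its orange points well to the right of its blue points, SEMA6B and SEMA4D have theirs to the left, and PLXND1 has the highest level.

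Class 3 semaphorins are secreted. SEMA3G, which arterial endothelium makes, was the most abundant of the 7, with 48.2 and 54.0 FPKM in Control against 57.7 and 73.2 FPKM in HAND1_OE. SEMA3F stood at 29.8 and 27.8 FPKM in Control, against 34.4 and 32.3 FPKM in HAND1_OE. Both genes were higher in every HAND1_OE library, by log2 fold changes of 0.34 and 0.21 that did not pass (adjusted p = 0.407 and 0.553). SEMA3A, the classical repellent of axons, stood at 0.890 and 1.22 FPKM in Control, against 2.17 and 2.18 FPKM in HAND1_OE (log2 fold change 0.63, adjusted p = 0.195). SEMA3B lay between 2.73 and 4.35 FPKM with overlapping groups. SEMA3C, SEMA3D and SEMA3E, the ligand of PLXND1, were not tested. SEMA3E stood at 0.190 and 0.236 FPKM in Control, against 0.193 and 0.287 FPKM in HAND1_OE, so the level of PLXND1 was above that of SEMA3E in every library. The co-receptor NRP1 stood at 116 and 138 FPKM in Control, against 60.6 and 97.0 FPKM in HAND1_OE, and NRP2 at 29.4 and 44.4 FPKM and at 48.3 and 63.5 FPKM. NRP1 lay lower and NRP2 higher in each HAND1_OE library, with log2 fold changes of -0.71 and 0.60 and adjusted p-values of 0.233 and 0.301.

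Membrane semaphorins of classes 4 to 7 had 13 members, all tested, of which SEMA4D and SEMA6B were called lower and 0 higher. At an unadjusted limma p under 0.05, 1 was higher and 4 were lower. Of all genes tested, 2.04% were called higher and 2.11% lower, with 6.82% and 10.6% at that unadjusted p. Of the 4 class 6 genes SEMA6B was called, 3 had log2 fold changes below 0 and 1 above. SEMA6A stood at 19.3 and 33.4 FPKM in Control, against 8.10 and 13.4 FPKM in HAND1_OE, for a log2 fold change of -1.21 with a wide standard error of 0.333 (adjusted p = 0.139). With a library left out the SEMA6A change ran from -1.59 to -0.83, and it was -0.88 without HAND1_OE replicate 1 (adjusted p = 0.247) and -1.54 without HAND1_OE replicate 2 (adjusted p = 0.0441). SEMA6C stood at 31.7 and 31.3 FPKM in Control, against 19.98 and 20.9 FPKM in HAND1_OE, for a log2 fold change of -0.60 (adjusted p = 0.0885). SEMA6D, which binds PLXNA1, was the exception, with 2.14 and 2.69 FPKM in Control against 4.30 and 5.90 FPKM in HAND1_OE (log2 fold change 0.83, adjusted p = 0.120). The groups of all 4 class 6 genes lay apart, as did those of 46.3% of all genes tested. Summed over class 6 the level was 87.7 and 100.3 FPKM in Control and 49.6 and 58.5 FPKM in HAND1_OE.

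The most abundant membrane semaphorin was SEMA4C, a ligand of PLXNB2, with 143 FPKM in each Control library, against 107 and 123 FPKM in HAND1_OE (log2 fold change -0.32, adjusted p = 0.364). SEMA7A, which is anchored by a lipid and binds PLXNC1 and integrins, averaged 16.2 ± 2.62 FPKM in Control, against 17.0 ± 2.74 FPKM in HAND1_OE (SD, n = 2). SEMA5B stood at 4.70 and 16.2 FPKM in Control, so that its 2 Control libraries spanned both HAND1_OE values of 8.37 and 9.29 FPKM. SEMA4B (5.87 ± 0.875 and 7.60 ± 0.194 FPKM), SEMA4F (4.96 ± 0.724 and 5.22 ± 0.219 FPKM) and SEMA4G (5.52 ± 1.90 and 5.83 ± 1.71 FPKM) did not pass either. SEMA4G shares 1170 exonic bases with MRPL43 on the opposite strand, and since strand-aware counting is not stated, its level is uncertain. SEMA6A, SEMA3F and EPHA4 share 268, 110 and 353 exonic bases with antisense genes. SEMA4A and SEMA5A lay between 0.432 and 1.88 FPKM.

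The ephrin-A ligands, which are anchored to the membrane by a lipid, include EFNA1, the most abundant guidance ligand in 3 of 4 libraries and a ligand of EPHA2. EFNA1 stood at 262 and 178 FPKM in Control, against 126 and 115 FPKM in HAND1_OE. Both HAND1_OE libraries were below both Control libraries, which themselves lay far apart, and the log2 fold change of -0.83 did not pass (SE 0.220, adjusted p = 0.122). EFNA3 stood at 17.2 and 11.9 FPKM in Control, against 7.54 and 7.27 FPKM in HAND1_OE, for a log2 fold change of -0.86 (adjusted p = 0.10). EFNA4, EFNA3 and EFNA1 follow each other on chromosome 1 between 155063731 and 155134857, with gaps of 9.32 and 39.9 kb. EFNA4, the first of the 3, stood at 24.2 and 17.7 FPKM in Control, against 21.6 and 16.2 FPKM in HAND1_OE, with overlapping groups (log2 fold change -0.14, adjusted p = 0.836). EFNA2 averaged 13.4 ± 0.526 FPKM in Control, against 15.1 ± 2.40 FPKM in HAND1_OE (SD, n = 2), and EFNA5 lay between 0.775 and 2.49 FPKM. Thus 0 of 5 ephrin-A genes were called (2 lower at an unadjusted limma p under 0.05, beside 10.6% of all genes tested).

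EPHA receptors had 9 members, of which 4 were tested and 0 called. At an unadjusted limma p under 0.05, 1 was higher, beside 6.82% of all genes tested. EPHA2, the receptor of EFNA1 in epithelium and endothelium, stood at 42.1 and 44.6 FPKM in Control, against 41.7 and 42.2 FPKM in HAND1_OE. The 95% interval of its log2 fold change ran from -0.39 to 0.30, with an estimate of -0.05 that was 0.06 after median-ratio scaling. The EFNA1 to EPHA2 ratio of FPKM values was 6.22 and 3.99 in Control and 3.02 and 2.73 in HAND1_OE, lower in both (exact permutation test on log2 ratios, two-sided p = 0.333, the smallest that 2 against 2 allows). EPHA7 stood at 1.93 and 2.97 FPKM in Control, against 6.01 and 8.18 FPKM in HAND1_OE. Its log2 fold change of 1.23 (SE 0.242) missed the threshold at a limma adjusted p = 0.0578. Of 8 alternatives with all libraries and no block by replicate number, 4 passed. These were 1 FPKM required in every library (0.0434), quantile normalization (0.0418), protein-coding genes alone (0.0310) and the length and GC trend removed (0.0260). The highest adjusted p of the 8 was 0.255. With a library left out the EPHA7 change ran from 1.02 to 1.45. EPHA4 stood at 7.58 and 8.81 FPKM in Control, against 9.51 and 14.1 FPKM in HAND1_OE (log2 fold change 0.46, adjusted p = 0.386). EPHA1 lay between 2.48 and 3.67 FPKM, and EPHA3, EPHA5, EPHA6, EPHA8 and EPHA10 were not tested.

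The pair of EFNB2 and EPHB4, markers of arterial and venous endothelium, was abundant in both groups. EFNB2 (ENSG00000125266.6, chromosome 13, 106489731 to 106535114) stood at 153 and 157 FPKM in Control, against 105 and 142 FPKM in HAND1_OE. EPHB4 (ENSG00000196411.9, chromosome 7, 100802565 to 100827521) stood at 148 and 118 FPKM in Control, against 109 and 101 FPKM in HAND1_OE. In the values as deposited each gene lay lower in both HAND1_OE libraries, by similar amounts. Of all genes tested, 30.1% lay lower in both. The log2 fold changes were -0.34 (95% interval -0.81 to 0.13, adjusted p = 0.458) and -0.33 (95% interval -0.75 to 0.09, adjusted p = 0.412), and neither passed. After median-ratio scaling the log2 fold change of EFNB2 was -0.23. With a library left out the change ran from -0.55 to -0.12 for EFNB2 and from -0.49 to -0.17 for EPHB4. EFNB2 shares 1313 exonic bases with the antisense gene AL138689.2, whose level is not known here, and EPHB4 shares 69 with SLC12A9 on the opposite strand, so without stated strand-aware counting their levels carry that doubt. The ratio of EFNB2 to EPHB4 was 1.03 and 1.33 in Control and 0.967 and 1.41 in HAND1_OE, so the groups overlapped and the HAND1_OE libraries lay further apart. On the log2 scale it was 0.23 ± 0.26 in Control and 0.22 ± 0.38 in HAND1_OE (SD, n = 2), a difference of -0.01 (exact permutation test, two-sided p = 1, where 0.333 is the smallest possible). Without 1 library the difference ranged from -0.28 to 0.26. Since the exact test cannot go below 0.333 here, it could not have detected a shift of any size. Of 8 other arterial markers 1 was called lower (HEY2) and 0 higher. At an unadjusted limma p under 0.05, 4 were lower (GJA4, DLL4, CXCR4 and HEY2) and 1 was higher (HEY1), and the median log2 fold change of the 8 was -0.38. Their part in the EFNB2 level was not tested. Of 5 venous markers 0 were called. At an unadjusted limma p under 0.05, 3 were lower (FLT4, NT5E and NR2F2) and 0 higher, and the median log2 fold change of the 5 was -0.55. Of all genes tested, 2.04% were called higher and 2.11% lower, with 6.82% and 10.6% at that unadjusted p. The median over all genes tested was -0.08.

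**Figure D4:**
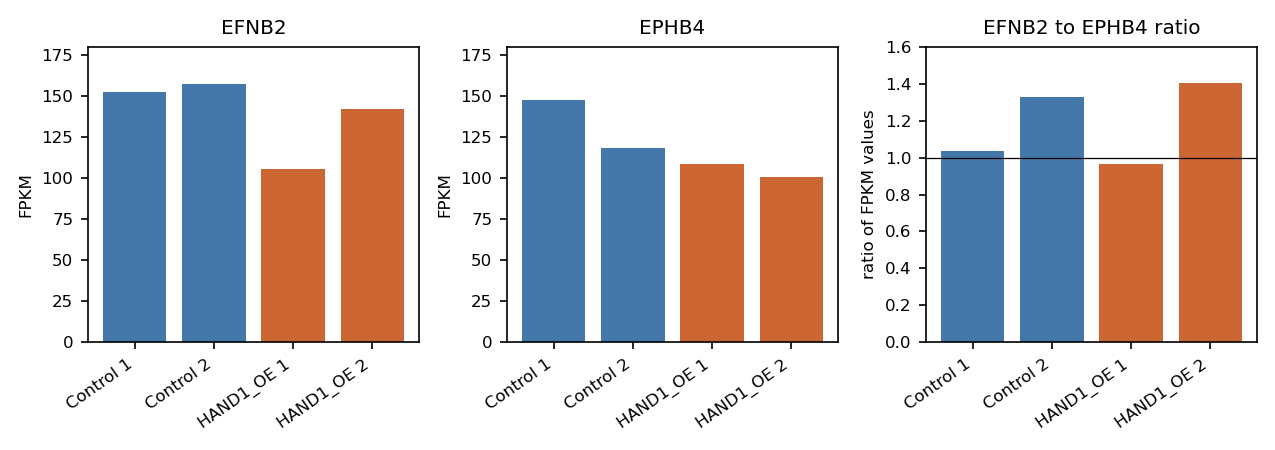
FPKM of EFNB2 (left) and EPHB4 (middle) and the ratio of the 2 values (right, with a line at 1) in each library, as bars from 0, blue for Control and orange for HAND1_OE. In the values as deposited both genes are lower in HAND1_OE. The ratio runs from 1.03 to 1.33 in Control and from 0.967 to 1.41 in HAND1_OE.

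The remaining ephrin-B ligands and EPHB receptors had log2 fold changes above 0. EFNB3 stood at 16.9 and 15.3 FPKM in Control, against 20.6 and 23.8 FPKM in HAND1_OE (log2 fold change 0.44, adjusted p = 0.235). EFNB1 stood at 2.57 and 5.97 FPKM in Control, against 5.52 and 9.06 FPKM in HAND1_OE, with overlapping groups (log2 fold change 0.70, adjusted p = 0.441), with a log2 change that became 0.22 without Control replicate 1 and 1.18 when Control replicate 2 was dropped. EPHB3 stood at 10.3 and 8.16 FPKM in Control, against 14.7 and 18.2 FPKM in HAND1_OE (log2 fold change 0.77, adjusted p = 0.109). EPHB6, whose kinase domain is inactive, stood at 1.87 and 1.93 FPKM in Control, against 6.93 and 3.28 FPKM in HAND1_OE (log2 fold change 1.01, adjusted p = 0.186). The EPHB6 change was 0.56 without HAND1_OE replicate 1 (adjusted p = 0.431) and 1.45 without HAND1_OE replicate 2 (adjusted p = 0.0294), so its size rests on which HAND1_OE library is kept. EPHB1 stood at 0.248 and 0.456 FPKM in Control, against 1.11 and 1.91 FPKM in HAND1_OE (log2 fold change 0.88, limma adjusted p = 0.158). The ratio of its mean FPKM was 4.29, which rests on Control values under 1 FPKM. EPHB2 lay between 1.58 and 2.22 FPKM. EPHB3, EPHB6 and EPHB1 were higher in both HAND1_OE libraries than in Control, as were 16.2% of all genes tested. Of the 5 EPHB genes 0 were called (3 higher at an unadjusted limma p under 0.05, beside 6.82% of all genes tested). Since EPHB4 held most of the EPHB level, the summed level was 162 and 130 FPKM in Control and 134 and 126 FPKM in HAND1_OE.

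Netrins were at the floor of the data. None of the 4 (NTN1, NTN3, NTN4 and NTN5) was tested, and together they summed to 2.02 and 2.01 FPKM in Control and to 1.21 and 1.38 FPKM in HAND1_OE. Their receptor UNC5B, which endothelial tip cells and arteries carry, had 88.5 and 130 FPKM in Control, against 94.9 and 116 FPKM in HAND1_OE. The groups overlapped (log2 fold change -0.03, or 0.08 after median-ratio scaling, 95% interval -0.60 to 0.54, adjusted p = 0.970). UNC5C stood at 5.15 and 3.14 FPKM in Control, against 9.59 and 9.19 FPKM in HAND1_OE, for a log2 fold change of 1.04 (SE 0.233, adjusted p = 0.0817). Of 8 alternatives with all libraries and no block by replicate number, UNC5C passed in 1, protein-coding genes alone (limma adjusted p = 0.0496). The highest adjusted p of the 8 was 0.284. With a library left out the UNC5C change ran from 0.76 to 1.33. UNC5A and UNC5D were not tested, and UNC5A was listed at 0 in both Control libraries.

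ROBO receptors had 4 members, all with log2 fold changes below 0, as had 8959 of the 14622 genes tested. Of the 4, 0 were called (2 lower at an unadjusted limma p under 0.05, beside 10.6% of all genes tested). ROBO4, the endothelial member, stood at 7.91 and 10.7 FPKM in Control, against 1.56 and 5.52 FPKM in HAND1_OE. The groups lay apart but the HAND1_OE libraries differed widely from each other, and the log2 fold change of -1.32 had a standard error of 0.449 (adjusted p = 0.217). The ROBO4 change was -0.64 without HAND1_OE replicate 1 (adjusted p = 0.324) and -1.99 without HAND1_OE replicate 2 (adjusted p = 0.0085), so its size rests on which HAND1_OE library is kept. ROBO4 shares 744 and 448 exonic bases with a pair of antisense genes, both listed at 0. ROBO1 stood at 27.4 and 37.0 FPKM in Control, against 16.7 and 22.5 FPKM in HAND1_OE (log2 fold change -0.69, adjusted p = 0.195). ROBO3 lies 2.22 kb from ROBO4 on chromosome 11, on the other strand. ROBO3 stood at 28.1 and 18.7 FPKM in Control, against 20.2 and 21.0 FPKM in HAND1_OE, with overlapping groups (log2 fold change -0.15, adjusted p = 0.813, and 0.13 without Control replicate 1). ROBO2 stood at 4.63 and 5.19 FPKM in Control, against 2.03 and 4.14 FPKM in HAND1_OE.

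Slit ligands are secreted and bind ROBO1 and ROBO2. SLIT2 stood at 12.2 and 7.50 FPKM in Control, against 13.0 and 12.1 FPKM in HAND1_OE (log2 fold change 0.35, adjusted p = 0.551), with a log2 change that became 0.67 without Control replicate 1 and 0.038 when Control replicate 2 was dropped. SLIT3 stood at 8.26 and 3.89 FPKM in Control, against 9.75 and 13.7 FPKM in HAND1_OE (log2 fold change 0.90, adjusted p = 0.260), with a log2 change that became 1.36 without Control replicate 1 and 0.44 when Control replicate 2 was dropped. SLIT1, not tested, lay between 0.185 and 0.376 FPKM. The ROBO sum was 68.0 and 71.6 FPKM in Control and 40.5 and 53.2 FPKM in HAND1_OE, while the slit sum was 20.8 and 11.8 FPKM and 22.9 and 25.98 FPKM.

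Other genes of these pathways were taken from a list of 47 co-receptors, further ligands and intracellular effectors, of which 40 were tested. Of these 40, 2 were called higher and 0 lower, beside 2.04% and 2.11% of all genes tested. At an unadjusted limma p under 0.05, 5 were higher and 4 lower, and the median log2 fold change was 0.02. NEO1 (neogenin), a receptor of netrins and of repulsive guidance molecules, stood at 38.4 and 35.5 FPKM in Control, against 68.0 and 69.1 FPKM in HAND1_OE (log2 fold change 0.88, adjusted p = 0.0345). L1CAM, an adhesion molecule that joins NRP1 in the SEMA3A receptor, stood at 1.03 and 2.07 FPKM in Control, against 6.17 and 6.51 FPKM in HAND1_OE (log2 fold change 1.56, adjusted p = 0.0354). Both were higher in every HAND1_OE library, as PLXNA1 was and as 16.2% of all genes tested were. How these 2 calls depend on the processing or on a single library was not examined. DCC, the other netrin receptor, was not tested and did not exceed 1.07 FPKM.

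The members shared features that the choice by symbol did not use. The longest annotated transcript of the tested members had a median length of 5.16 kb and a median GC content of 58.9%, against 3.66 kb and 48.6% for the 12511 tested protein-coding genes. Gene spans were alike, with medians of 32.2 and 32.5 kb.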

How the data were processed

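RNA was extracted from CD31+ cells and sequenced from Illumina TruSeq libraries of total RNA. The deposited table gives one value per gene and library without naming a unit. FPKM is the unit in which the authors show expression, and the deposited values were read as such. The submitters' processing notes list BWA, Bowtie, RSEM and hg19 without roles or versions, yet row coordinates are those of GRCh38, with ends equal to GENCODE 29 for 55589 of 55605 genes matched by versioned ID. Starts were converted to count from 1. All 66 members matched GENCODE 29 by ID. Y copies of pseudoautosomal genes (45 rows) and 91 repeated gene IDs were left out.

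Genes that reached 1 FPKM in 2 or more libraries were tested on log2(FPKM + 1) by limma 3.58.1 under R 4.3.3, allowing the variance to follow the mean level. Tests were two-sided, with Benjamini-Hochberg adjustment over all 14622 genes tested. The code was tested on simulated data. Named genes are EFNB2, EPHB4, members that were called or averaged at least 5 FPKM in a group, HAND1, NRP1, NRP2 and up to 3 called genes of the pathway list. All others were named after their values were seen, to account for every member. Members and lists were chosen with earlier results of these data known. Marker lists covered endothelial, arterial, venous, erythroid, megakaryocyte, myeloid, pan-hematopoietic, fibroblast, neural, pluripotency (of 4 tested, GDF3 was called lower) and epithelial genes (of 6 tested, 0 were called by limma and 0 had an unadjusted p under 0.05).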

Additional observations from a re-analysis of the deposited data

How the results depend on the processing

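Alternatives were tried for 42 named genes, which did not include NEO1 and L1CAM, and for the counts. With every gene above 0 tested, limma called 0 genes higher and 0 lower in the whole table (1458 and 2352 at an unadjusted p under 0.05) and 0 members either way (8 and 6). Members called higher were 2 with 1 FPKM required in every library, 2 after quantile normalization, 3 with protein-coding genes alone, 2 with the length and GC trend removed, and 1 to 2 with a library left out. Members called lower were 1 after median-ratio scaling, 1 with the length and GC trend removed, 1 when a fold change of 2 or more was also required, and 0 to 2 with a library left out. They were 0 without Control replicate 1, Control replicate 2 or HAND1_OE replicate 1 (10, 6 and 7 at an unadjusted p under 0.05), and the 2 called without HAND1_OE replicate 2 were SEMA6A and ROBO4. Over all genes, calls ranged from 134 to 266 higher and from 137 to 309 lower with a library left out, the fewest without Control replicate 2, and the length and GC trend removed gave 418 higher and 283 lower. The trend, the choice of protein-coding genes and median-ratio counts of non-overlap were added after seeing the data.
The labels give both groups the replicate numbers 1 and 2 without saying that they pair the samples. Deviations of same-numbered libraries correlated at 0.383 over all genes and at 0.392 over the members. With the replicate number as a block, 4 of 50 members were called higher and 6 lower, beside 597 (4.08%) and 712 (4.87%) of all genes. Besides SEMA4D and SEMA6B, the 6 included EFNA1 (limma adjusted p = 0.0403) and SEMA6A (0.0130). With all libraries and no block, EFNA1 and SEMA6A did not pass. With the trend also removed, 10 and 8 of the 50 were called, beside 1075 (7.37%) and 877 (6.01%) of all genes. In this balanced layout the block cannot move a difference of group means.
Some small changes turned direction, and none of these was called either way. SEMA5B was 0.011 with a pseudocount of 0.1, 0.062 after quantile normalization, 0.085 after median-ratio scaling and 0.081 with the trend removed, blocked or not. EPHA2 was 0.063 after median-ratio scaling and 0.063 with the trend removed, blocked or not. UNC5B was 0.077 after median-ratio scaling and 0.014 with the trend removed, blocked or not. PLXNB2 was 0.015 after median-ratio scaling and PLXND1 was -0.035 after quantile normalization. With a library left out, ranges crossing 0 were -0.35 to 0.078 for EFNA4, -0.057 to 0.19 for SEMA4F, -0.23 to 0.38 for SEMA4G, -0.81 to 0.79 for SEMA5B, -0.093 to 0.22 for SEMA7A, -0.43 to 0.13 for ROBO3, -0.31 to 0.24 for UNC5B, -0.19 to 0.56 for PLXNA2 and -0.30 to 0.39 for PLXND1. Of 39 named members, 22 had a change that moved by over 1.5 times with some library left out, none of them among the 3 called with all libraries. The cause was not tested. Depth is unknown, which limits what can be said of genes under 1 FPKM.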
